A study of Mus musculus with 2 samples.

Results

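The 6 actin genes of the mouse, Acta1, Actc1, Acta2, Actg2, Actb and Actg1, were chosen by symbol from 55536 annotated genes, and each matched 1 gene identifier. Total RNA of gastrocnemius, a calf muscle, was sequenced from adult female mice aged 8 to 10 months. The labels give the strain of both tissue samples as 5xFAD/CAST, a cross between 5xFAD and CAST. 5xFAD is a line with human transgenes, driven by a neuronal promoter and used to model Alzheimer's disease, and CAST is a wild-derived strain. Both samples form 1 group of 2 libraries with no control genotype, treatment or other tissue. They have separate sample identifiers and 1 donor identifier in the labels, so whether they came from separate animals is not settled and the spread between them may be technical. Each library comes with values from a first quantifier, whose tables have the columns of RSEM, and a second, whose tables have those of kallisto. Both used the same reads, so they are not replicates, and values are from the first unless the second is named.

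Actin monomers join into filaments, on which myosin pulls in the sarcomeres of striated muscle and which shape and move other cells. Acta1 encodes the skeletal alpha-actin of adult fibres, and Actc1 the cardiac alpha-actin, which skeletal muscle also makes during development and regeneration. Acta2 encodes the alpha-actin of vascular smooth muscle, Actg2 the gamma-actin of visceral smooth muscle, and Actb and Actg1 the cytoplasmic beta- and gamma-actins found in most cells. Serum response factor (SRF) binds the CArG box in the control regions of several of these genes, together with myocardin-related factors that free actin monomers hold back.

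The coding sequences are shown first because the genes encode nearly the same protein with different bases. In the GENCODE M21 transcripts the coding sequence had 1134 bases in Acta1, Actc1 and Acta2, 1131 in Actg2 and 1128 in Actb and Actg1. The first 60 coding bases of the leading transcript of each gene are printed 5′ to 3′, with capitals where a base differs from Acta1 after alignment by codon. Acta1 codons without a partner leave no gap in the lines of Actg2, Actb and Actg1. These lines are therefore out of register with Acta1, and capitals refer to the aligned base and not to the column.
Acta1: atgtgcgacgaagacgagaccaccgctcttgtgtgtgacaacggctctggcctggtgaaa
Actc1: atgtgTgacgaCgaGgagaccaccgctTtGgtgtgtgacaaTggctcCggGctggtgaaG
Acta2: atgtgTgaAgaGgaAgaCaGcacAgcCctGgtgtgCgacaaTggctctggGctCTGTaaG
Actg2: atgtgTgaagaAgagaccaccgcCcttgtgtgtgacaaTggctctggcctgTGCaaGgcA
Actb: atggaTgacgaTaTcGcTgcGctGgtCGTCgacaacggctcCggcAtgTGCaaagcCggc
Actg1: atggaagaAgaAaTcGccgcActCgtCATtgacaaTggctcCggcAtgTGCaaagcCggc
Over the 15 pairs of genes, between 93.6% and 99.5% of aligned residues were identical, but only 82.0% to 88.6% of coding bases. The closest proteins were those of Acta2 and Actg2, which differed at 2 residues of 376 aligned. Acta1 and Actc1 differed at 4 residues of 377, and Actb and Actg1 at 4 residues of 375. The striated and cytoplasmic proteins Acta1 and Actb differed at 24 residues of 375. The 155 base differences between the coding sequences of Acta1 and Actc1 fell at the third codon position in 95.5% of cases.

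How far reads could be told apart was described from every distinct stretch of 31 bases (a word) in the transcripts of each gene. Words found in at least 1 other actin gene made up 3.72% of the words of Acta1, 0.756% of Actc1, 1.20% of Acta2, 0.636% of Actg2, 4.82% of Actb and 4.09% of Actg1. The pair with the most shared words was Actb and Actg1, with 106. Acta1 shared no word of this length with Actc1, Acta2 or Actg2, the genes whose proteins are most like its own. No word of 101 bases, a length added after seeing the data, was found in more than 1 of the 6 genes.

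Genes outside the family shared more sequence with the cytoplasmic actins than the other members did. Against all annotated genes, 40.2% of the 31-base words of Actg1 and 23.5% of those of Actb were found elsewhere, against 4.11% for Acta1 and 1.39% or less for Actc1, Acta2 and Actg2. At 101 bases 29.8% of the words of Actg1 were shared, with 6 other genes, and 0.611% of those of Actb. Outside the 6 members, 29 genes had transcripts at least 80% identical to an actin transcript over at least 150 bases. Of these genes 20 were closest to Actg1, 9 to Actb and none to a muscle actin, and 27 were annotated as pseudogenes. The first quantifier gave 23 of the 29 a count of 0 in both libraries. Of all 55536 genes only 18594 had a count above 0 in both, and the share at 0 in both was not computed.

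**Figure D1:**
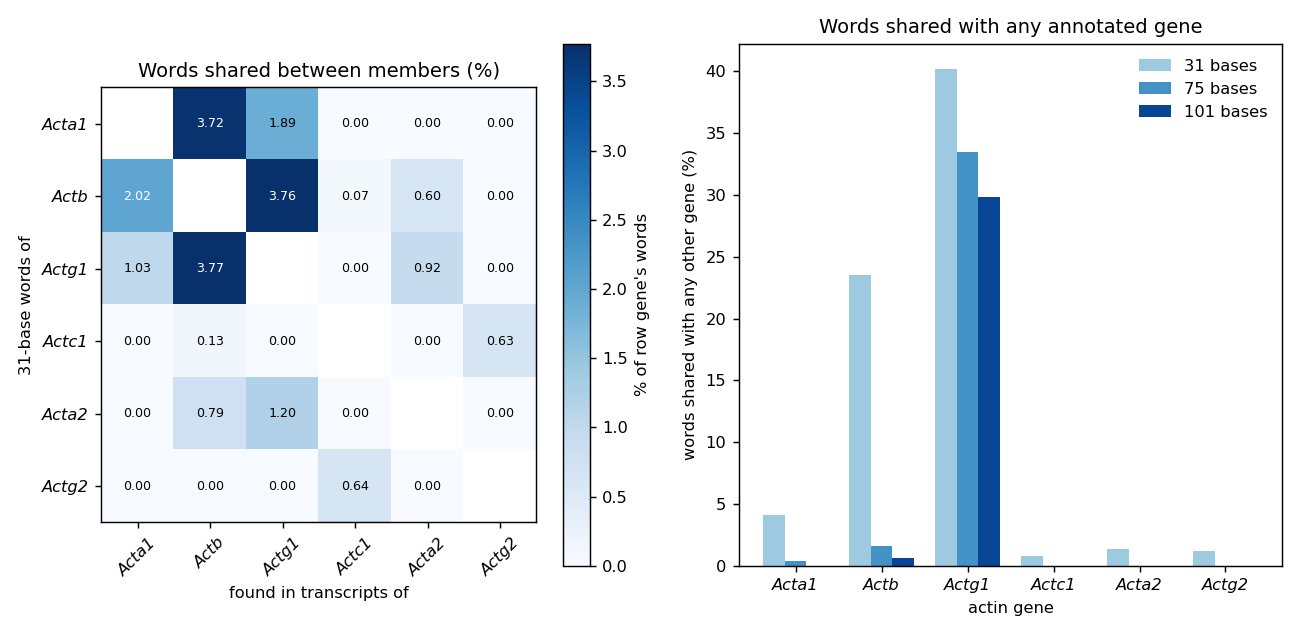
The left panel gives the percent of each row gene's 31-base words that also occur in the column gene, and the right panel the percent of each gene's words of 31, 75 or 101 bases found in any other annotated gene. Actg1 stands highest at each length, from 40.2% to 29.8%, and Acta1, Actc1, Acta2 and Actg2 share none at 101 bases.

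Of the actin-like genes, 4 reached TPM 1 (a share of all transcripts of a library, corrected for their length) in at least 1 library by either quantifier. Gm8399 on chromosome 13, a processed pseudogene 98.6% identical to Actg1 over 1125 bases, was given 4.55 TPM in library 1 and 4.95 in library 2. The second quantifier gave Gm8399 less, 2.65 and 3.50 TPM. Gm17228 on chromosome 17 had 0.590 and 1.36 TPM from 7 and 14 counts. Gm15725 lies within the gene Lrrc58 on the same strand of chromosome 16, at 37882542 to 37883631 (mm10), and is 91.8% identical to Actb over 1133 bases. It had 122 counts in library 1 and 55.7 in library 2, with posterior SDs (the quantifier's own uncertainty of a count) of 24.3 and 24.9. Lrrc58, at 17.4 and 17.5 TPM, carried posterior SDs of 24.2 and 24.9 and has a stretch 89.6% identical to Actb over 1888 bases. Gm12715, the closest copy, was 99.6% identical to Actg1 over 1128 bases and had 0 and 14.0 counts by the first quantifier and 0 in both libraries by the second.

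The counts of the members carried little of this uncertainty. The posterior SD was 0 for Acta1, Actc1, Acta2 and Actg2 in both libraries. For Actb it was 1.70 and 1.67 counts, or 0.0327% and 0.0299% of its count. For Actg1 it was 6.75 and 8.53 counts, or 0.259% and 0.312% of its count. All genes closest to Actg1 together were given counts equal to 6.22% and 6.21% of the Actg1 count by the first quantifier, and 4.43% and 4.61% by the second.

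The labelled tissue was checked against its markers, and 12 of 12 skeletal fibre markers were at TPM of at least 1 in both libraries, with a summed 77004 TPM in library 1 and 91473 in library 2. Total counts over genes were 35423706 and 34367627. The 7SL genes Rn7s1 and Rn7s2 held 35.4% of gene TPM in library 1 and 27.0% in library 2. Deposited TPM put the median gene 0.17 higher in library 2 on the log2 scale, and ratios between libraries were taken from counts under TMM scaling, which put it at 0.01.

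Striated actins held nearly all actin RNA. Acta1 (ENSMUSG00000031972.5, chromosome 8, 123891769 to 123894751, minus strand, mm10) reached 16962.41 TPM in the first library and 18999.89 in the other, and its mean was 17981 ± 1441 (SD, n = 2). It was the highest nuclear protein-coding gene in both libraries and the fifth of all genes, after the 7SL copies and the mitochondrial ribosomal RNAs. The next protein-coding gene, Ckm, the muscle creatine kinase, stood at 14267 and 16993 TPM. Acta1 held 4.34% and 4.26% of the TPM of nuclear protein-coding genes and 98.7% and 98.5% of the summed TPM of the 6 actin genes. Its counts, 691026 and 668797, have 95% exact Poisson intervals of 689398 to 692657 and 667195 to 670402, which cover counting error only, as do all intervals below. The gene lies within Gm20388, a long entry on the opposite strand with 195 and 150 counts, and the library kit kept strand per the labels.

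Actc1 (ENSMUSG00000068614.7, chromosome 2, 114047282 to 114053548, minus strand) had 35.36 TPM in library 1 and 59.08 in library 2, 47.2 ± 16.8. The level was higher in library 2, and its share of summed actin TPM was 0.206% in library 1 and 0.306% in library 2. Acta1 exceeded Actc1 480-fold in library 1 and 322-fold in library 2, and 596-fold and 396-fold by the second quantifier. The Actc1 gene lies within A530058N18Rik on the opposite strand, which had 0 counts in both libraries. Actc1 ranked 1351 and 893 among nuclear protein-coding genes.

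The cytoplasmic actins came next to Acta1 in level. Actb (ENSMUSG00000029580.14, chromosome 5, 142903115 to 142906754, minus strand) had 116.60 TPM in library 1 and 144.38 in library 2, 130 ± 19.6. Actg1 (ENSMUSG00000062825.15, chromosome 11, 120345690 to 120348542, minus strand) had 52.90 and 66.57 TPM, 59.7 ± 9.67. Actb exceeded Actg1 by 2.20-fold and 2.17-fold, so the ratio between these genes was close in both libraries. By the second quantifier it was 2.43-fold and 2.45-fold, so it differed more between quantifiers than between libraries. Each level was higher in library 2 in deposited TPM, at log2 ratios of 0.31 and 0.33, where the median gene was at 0.17. In scaled counts the ratios were 0.14 and 0.11 by TMM and 0.07 and 0.04 by spike-ins. Together Actb and Actg1 held 0.987% and 1.09% of summed actin TPM, or 77.6% and 74.0% of what Acta1 left. In bulk tissue, fewer cells of a type and less RNA per cell cannot be told apart.

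The smooth muscle actins differed widely from each other. Acta2 (ENSMUSG00000035783.9, chromosome 19, 34241090 to 34255590, minus strand) had 13.44 TPM in library 1 and 14.80 in library 2, 14.1 ± 0.962. Of 13 smooth muscle and pericyte markers, 12 were at TPM of at least 1 in both libraries, with a summed 245 and 284 TPM. Synpo2 gave 85.3 and 98.4 of that sum, Rgs5 46.9 and 51.2 and Abcc9 46.4 and 54.0. Myh11 gave only 6.32 and 6.46 and Tagln 11.9 and 14.7. How much of this sum came from muscle fibres was not tested. Actg2 (ENSMUSG00000059430.14, chromosome 6, 83512905 to 83536265, minus strand) had 6 and 5 counts, with exact Poisson intervals of 2.2 to 13.1 and 1.62 to 11.7. These counts correspond to 0.17 and 0.15 TPM, and to 0.250 and 0.271 TPM by the second quantifier, all below the detection threshold of TPM 1. Acta2 exceeded Actg2 79.1-fold and 98.7-fold, values that rest on those few counts. Of 7 enteric and visceral smooth muscle markers, Actg2 among them, 3 were at TPM of at least 1 in both libraries. Summed levels of the list were 1029 and 1181 TPM. Des, also a fibre gene, gave 904 and 1002 of these, Synm 100 and 148 and Smtn 24.1 and 30.0. Hand1 had 0 counts in both libraries.

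The order of mean TPM was Acta1, Actb, Actg1, Actc1, Acta2 and Actg2. Actg1 was above Actc1 within each library, at 52.90 against 35.36 TPM in library 1 and 66.57 against 59.08 in library 2, and by the second quantifier 1.44-fold and 1.05-fold. Their difference in mean of 12.5 TPM was smaller than the SD of Actc1, 16.8, and their ranges over libraries overlapped. The ranges of all other neighbours in that order did not overlap. The second quantifier gave the same order in each library, with Acta1 at 19736 and 22954 TPM, Actb at 116 and 149, Actg1 at 47.8 and 60.7, Actc1 at 33.1 and 57.9 and Acta2 at 15.4 and 17.6.

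**Figure D2:**
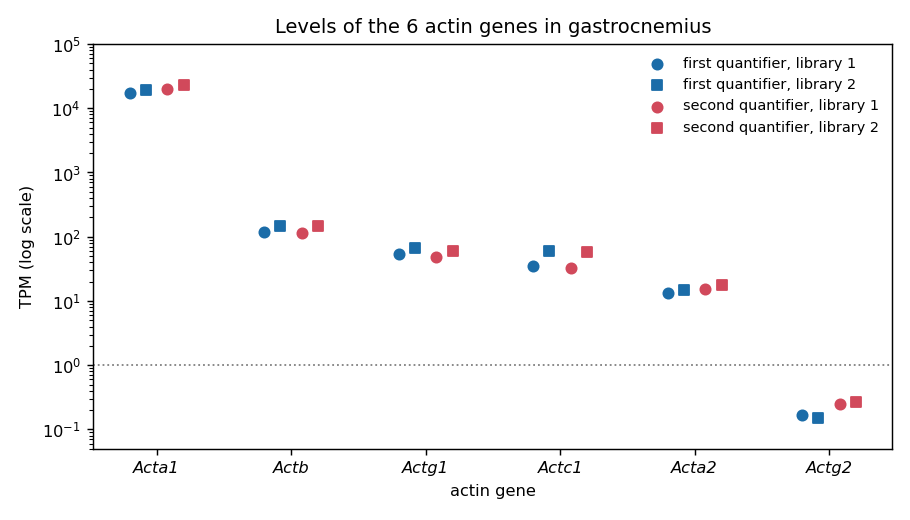
TPM on a log scale of each actin gene, with circles for library 1, squares for library 2, blue for the first and red for the second quantifier, and a dotted line at TPM 1. Acta1 lies at 16962 TPM or higher in all 4 values, Actg2 below 0.3, and the ranges of Actg1 and Actc1 overlap.

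Between the libraries, Actc1 was the member that moved most. Its counts were 1476 and 2133, a log2 ratio of library 2 over library 1 of 0.57 (95% Clopper-Pearson counting interval 0.47 to 0.67). That size was at the percentile 97.6 of the absolute log2 ratios of 6685 genes with mean TPM of at least 5 and at least 100 counts, whose median was 0.09. None of the 5 members tested passed 1.5-fold in either direction, and 2.29% of all genes tested did. At 2-fold the count was 0 of 5 members against 0.494% of all genes. Actc1 lay just inside 1.5-fold under TMM, DESeq2, library-total and spike-in scaling, at 0.50 to 0.57, and past it in deposited TPM at 0.74, of which 0.17 is the shift of the median gene. With 1 library on each side no test was made, since an exact sign-flip test of 2 libraries cannot go below p = 0.5.

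The other members stayed near the median gene. Actb stood at a log2 ratio of 0.14 (0.09 to 0.20) from 5198 and 5587 counts. Actg1 stood at 0.11 (0.03 to 0.19) from 2606 and 2735 counts. Acta1 stood at -0.01 and Acta2 at -0.06 (-0.22 to 0.10), and both signs turn positive in deposited TPM, at 0.16 and 0.14. Actg2 was not tested at this depth, its interval running from -2.27 to 1.75.

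Markers of heart, slow fibres, developing fibres and fibroblasts stood beside the Actc1 difference as follows. Of 10 cardiac muscle markers, 5 were at TPM of at least 1 in both libraries, with a summed 627 TPM in library 1 and 850 in library 2, nearly all from Myl2, Myl3 and Myh6. Myl2 and Myl3, which slow skeletal fibres also make, had log2 ratios of 0.29 and 0.34, and Myh7, the slow myosin, had 0.33. Myh6 had a log2 ratio of 0.23 (0.16 to 0.31), the same direction as Actc1. Its level was 59.2 and 78.2 TPM by the first quantifier but 21.1 and 29.0 by the second. Of the other markers in this list, Nppb had 0 counts in both libraries and Nppa 0.170 and 0.200 TPM. Myl7 had 0.130 and 0.0800 TPM, Tnni3 0.870 and 0.530 and Ryr2 0.130 and 0.110. Myl4 at 3.07 and 2.51 TPM and Tnnt2 at 1.92 and 1.39 TPM were detected in both libraries and lay the other way, at log2 ratios of -0.58 (-1.15 to -0.01) and -0.63 (-1.27 to -0.02). Of 8 developing and regenerating fibre markers, 5 were at TPM of at least 1 in both libraries, with summed levels of 82.9 and 95.5 TPM. The 3 of them that passed the filter on level and counts had a median log2 ratio of 0.04, with the perinatal myosin Myh8 at 0.04, Myog at -0.17 and Ncam1 at 0.14. Of those below the filter, Myh3, the embryonic myosin, was at -0.11 and Myod1 at 0.05. Pax7, which marks muscle stem cells, was at 0.86 (0.24 to 1.51) from 0.200 and 0.580 TPM, and Mymk at -2.77 (-8.26 to 0.19) from 0.180 and 0.0300 TPM. Of 7 fibroblast markers all 7 were detected, with summed levels of 381 and 400 TPM and a median log2 ratio of 0.15. Among them the collagens Col1a1 and Col3a1 were both at 0.50 and Col1a2 at 0.38, while Dcn was at -0.08, Gsn at -0.24 and Pdgfra at -0.33. The part of these markers in the Actc1 difference was not tested.

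**Figure D3:**
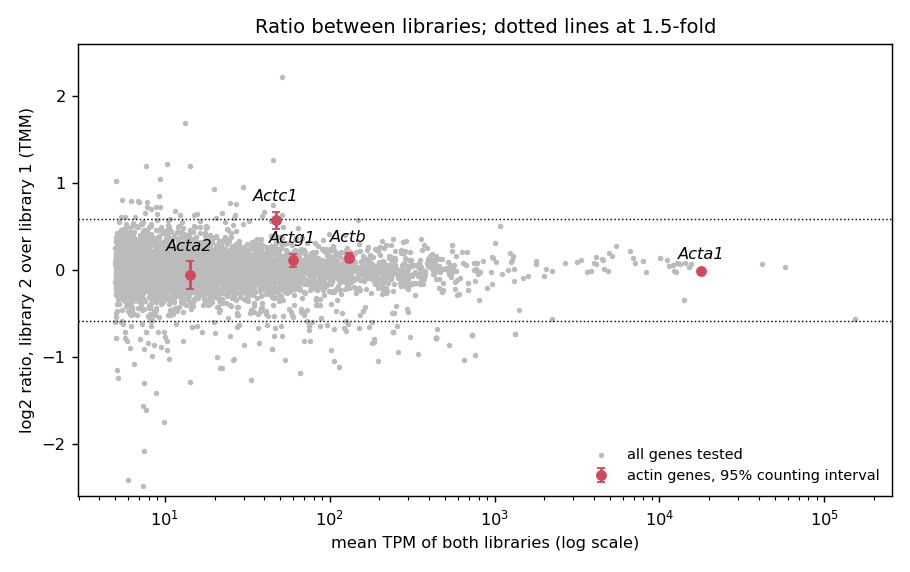
Log2 ratio of library 2 over library 1 (TMM-scaled counts) against mean TPM on a log scale, with 6685 genes in grey, of which 1 lies outside the axis, and the 5 tested actin genes in red with 95% counting intervals. Actc1 lies at 0.57, just under the upper dotted line at 1.5-fold, and Acta1, Acta2, Actb and Actg1 lie between -0.06 and 0.14.

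Gene levels of the 5 members with mean TPM of at least 1 in both quantifiers were set against each other. After the median of all genes was set to 0, the log2 ratio of the second over the first quantifier was 0.28 and 0.30 for Acta1, 0.26 and 0.28 for Acta2, 0.06 and 0.07 for Actb, -0.08 and -0.10 for Actg1 and -0.03 in library 1 for Actc1. Actg2, below that level, was at 0.62 and 0.88, from 6 and 5 counts by the first quantifier. None of the 5 members compared passed 1.5-fold, against 5.30% of 10620 genes in library 1 and 5.23% of 10617 genes in library 2. None passed 2-fold, against 1.82% and 1.71%. The second quantifier gave more counts, 738757 and 720284 for Acta1 and 747 and 707 for Acta2. With counts in place of TPM and the median of all genes again at 0, Acta1 was at -0.05 in both libraries and Acta2 at 0.00 and 0.01, so relative to the median gene their counts were not in excess.

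Transcript shares within Acta1 and Acta2 differed more between quantifiers than between libraries. Acta1-201, the full transcript of 1446 bases and 7 exons, held 99.3% and 99.1% of Acta1 TPM by the first quantifier but 70.0% and 69.1% by the second. The remainder went to Acta1-202, of 616 bases and 4 exons, which was given 1949 and 2301 counts by the first quantifier and 88673 and 89570 by the second. Acta2 showed the same direction, with Acta2-202, of 826 bases, at 23.4% and 25.9% of gene TPM by the first and 45.7% and 47.7% by the second.

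Actb had 9 annotated transcripts, of which 5 held at least 1% of the gene in some library or quantifier. Actb-201, the coding transcript of 1920 bases, led with 65.7% and 66.5% by the first quantifier and 57.9% and 59.1% by the second. Actb-206, annotated as a processed transcript, had 26.8% and 26.7% by the first and 13.4% and 15.6% by the second. Actb-208 had 2.82% and 0.796% by the first and 24.9% and 20.5% by the second. The retained-intron transcripts Actb-205 and Actb-204 together held 4.60% and 4.99% by the first quantifier and 3.78% and 4.49% by the second.

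Actg1 also had 9 transcripts, of which 7 reached 1%. Its leading coding transcripts were Actg1-202 and Actg1-204, whose shares differed between libraries by the first quantifier. Actg1-202 held 66.7% in library 1 and 42.2% in library 2, and Actg1-204 held 10.4% and 33.8%. The second quantifier gave Actg1-202 38.6% and 33.2% and Actg1-204 37.2% and 41.5%, a smaller difference between libraries in the same direction, with Actg1-202 ahead in library 1 and Actg1-204 in library 2. Actg1-206, annotated for nonsense-mediated decay, held 12.1% and 9.49% by the first and 11.3% and 9.25% by the second, and 3 retained-intron transcripts together held 9.69% and 13.8% by the first. The gene spans the annotated miRNA entries Gm23419 and Mir6935 on its own strand, both at 0 counts. Actc1-201 held all Actc1 TPM except 2.16% given to Actc1-202 in library 2 by the second quantifier. The Actg2 counts were too few to divide, and the first quantifier placed 5.85 of them on Actg2-202 in library 1 and all 5.00 on Actg2-201 in library 2.

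**Figure D4:**
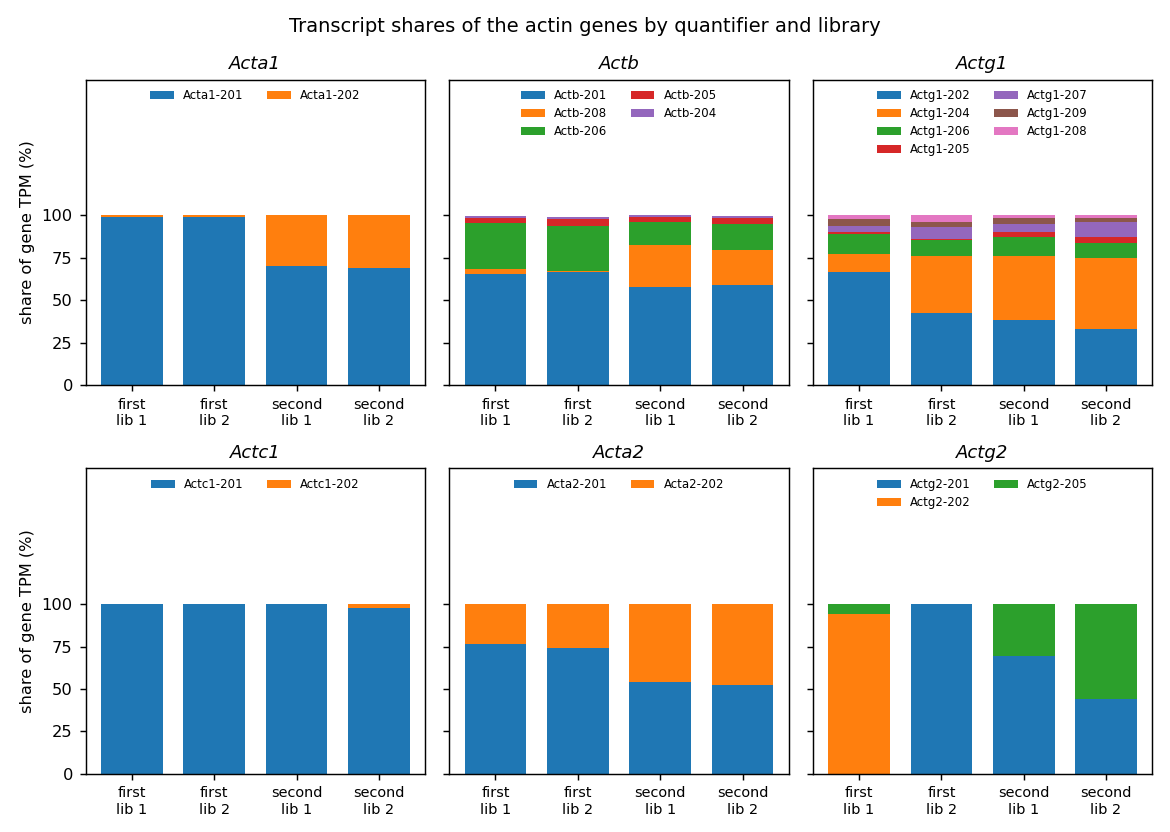
Stacked bars give the percent of each actin gene's TPM held by its transcripts of at least 1%, for the first and second quantifier in libraries 1 and 2. For Acta1 and Acta2 the shorter transcript (orange) is larger by the second quantifier in both libraries, and Actg1-202 (blue) ranges from 66.7% to 33.2%.

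RefSeq promoter windows (GRCm38.p6, 250 bases before to 50 after the start site) were listed for 4 of the 6 genes, Acta1, Actc1, Acta2 and Actg1. They are shown because the genes differ so widely in level while SRF is a known regulator of several. The CArG box was searched as CC, then 6 bases each A or T, then GG, a pattern that reads the same on both strands. It was found in the windows of Acta1, Actc1 and Actg1, once each, and no exact match was found in that of Acta2. Boxes that depart from this pattern were not searched, so a CArG-like box in the Acta2 window would be missed. Of 32851 promoter windows of the same length, 535 (1.63%) held one. The 60 bases around each box are printed 5′ to 3′ on the minus strand with the box in capitals.
Acta1: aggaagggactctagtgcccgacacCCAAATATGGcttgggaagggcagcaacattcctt
Actc1: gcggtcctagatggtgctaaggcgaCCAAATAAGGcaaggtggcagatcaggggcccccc
Actg1: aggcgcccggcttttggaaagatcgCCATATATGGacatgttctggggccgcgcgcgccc
They lie at chr8:123894814-123894873, chr2:114052888-114052947 and chr11:120348551-120348610. The boxes begin 73, 47 and 90 bases before the start site of Acta1, Actc1 and Actg1. A match is a description of these letters, and nothing about SRF binding was measured. Of the genes with an exact match, Acta1 had 17981 TPM, Actc1 47.2 and Actg1 59.7. Acta2, without an exact match in its window, had 14.1, and whether it lacks a working box was not tested.

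Genes that act on actin or on its transcription were described from 8 lists with 105 matched genes, 85 of which were at TPM of at least 1 in both libraries. At TPM of at least 5 the number was 66. The share of all genes at these levels was not computed, so the detected numbers here and below are descriptions only. Among 68 of them with enough counts for a ratio, 1 was past 1.5-fold higher and 1 past 1.5-fold lower in library 2. Of all 6685 genes tested, 2.29% were past 1.5-fold in either direction. The median log2 ratio of the 68 was 0.01, the same as over all genes tested.

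Of 14 genes for monomer binding and filament turnover, all 14 were detected, with Cfl2, the muscle cofilin that severs filaments, highest at 196 ± 20.9 TPM. Pfn1, a profilin that delivers monomers to filament ends, followed at 107 ± 15.4, close to Cap2 at 106 ± 16.1. The second quantifier put Cap2, at 97.7 and 124 TPM, above Pfn1, at 89.7 and 119. Acta1 exceeded Cfl2 91.7-fold and Pfn1 168-fold, while Actb at 130 TPM was of their order. Of 8 genes for capping and severing, 6 were detected, led by the severing protein gelsolin (Gsn) at 221 ± 6.12 TPM and the capping subunit Capzb at 175 ± 15.8. By the second quantifier Capza2, at 163 and 200 TPM, stood above Capzb, at 149 and 176. Of 23 genes for nucleation and elongation, 19 were detected, led by Lmod2, a leiomodin that nucleates thin filaments, at 69.3 ± 2.86 TPM and Cobl, a nucleator, at 61.1 ± 7.42.

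Of 11 crosslinkers, 9 were detected, with the Z-disc alpha-actinins Actn3 at 4102 ± 446 TPM and Actn2 at 343 ± 34.8 highest. Acta1 exceeded Actn3 4.38-fold. Of 14 matched genes for folding and modification of actin, all 14 were detected, led by the prefoldin subunit Pfdn5 at 110 ± 7.42 TPM and the chaperonin subunit Tcp1 at 75.4 ± 3.95. The second quantifier reversed these, with Tcp1 at 79.3 and 81.9 TPM and Pfdn5 at 72.0 and 75.5. None of the genes with enough counts in these 5 lists passed 1.5-fold between libraries, against 2.29% of all genes tested.

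Of 8 matched SRF pathway factors, 7 were detected, led by Abra, a striated muscle activator of the pathway, at 59.9 ± 0.651 TPM and Srf itself at 33.5 ± 4.27. Myocd, the smooth and cardiac muscle coactivator, was the 1 below the threshold, at 0.270 and 0.130 TPM. Mrtfa, a myocardin-related factor named, like Myocd, after its values were seen, had 555 and 827 counts and a log2 ratio of 0.62 (0.46 to 0.77). Of 13 SRF target genes other than actins, 12 were detected, led by tropomyosin 1 (Tpm1) at 10151 ± 1511 TPM and Fhl1 at 380 ± 28.4. Fos, an immediate early gene of the same list, was the 1 tested gene in the 8 lists past 2-fold, against 0.494% of all genes tested. Fos had 519 counts in library 1 and 95 in library 2. Its log2 ratio was -2.41 (-2.74 to -2.09), lower in library 2 where Actc1 was higher. Egr1 of the same list, below the filter on level and named after its values were seen, had 279 and 81 counts. The log2 ratio of Egr1 was -1.74 (-2.12 to -1.38), in the direction of Fos. The median over 10 tested genes of this list was 0.04.

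Of 16 matched other actin family genes, 6 were detected in both libraries, led by the dynactin subunits Actr1b at 53.1 ± 0.0495 TPM and Actr10 at 37.3 ± 4.32. Both were below Actg1 in mean TPM. The list held 7 genes with 0 counts in both libraries, among them Actbl2, a beta-actin-like gene. A count of 0 allows up to 3 counts, a level of 0.0847 CPM (counts scaled to total depth) for library 1 and 0.0873 for library 2.

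**Figure D5:**
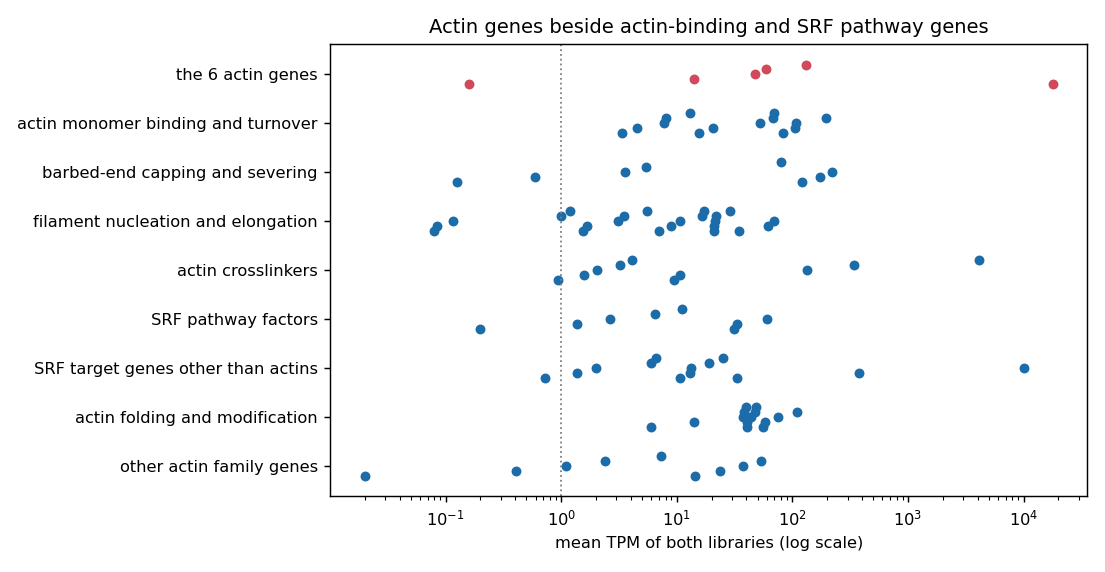
Mean TPM of both libraries on a log scale for the 6 actin genes (red) and 8 lists of actin-binding and SRF pathway genes (blue), with a dotted line at TPM 1 and 8 genes at or below 0.01 not drawn. Acta1 at 17981 lies to the right of all genes of the lists, and Actb, Actg1, Actc1 and Acta2 lie within the range of the actin-binding genes.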

How the data were processed

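The deposited read-me names mm10 and GENCODE M21 as build and annotation. Software and read length: not given in the sources used here. Per the file headers, gene and transcript tables with the columns RSEM writes (first quantifier) and transcript tables with the columns kallisto writes (second quantifier) hold expected or estimated counts and TPM computed by the authors. The first also gives the percent of a gene's TPM per transcript, deposited by the authors and recomputed here. Reads of CAST alleles were assigned against mm10, and the effect was not tested.

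Expected counts were rounded and scaled by trimmed means of M values (TMM; edgeR 4.0.16, checked on simulated data). DESeq2 1.42.0 size factors, ERCC spike-ins, library totals, TPM and the second quantifier were alternatives. Similar transcripts were found with BLAST+ 2.17.0. Each ± is the SD of n = 2 libraries. All members were named. From each pathway list the highest and next highest gene by the first quantifier were named, and any tested gene past 2-fold between libraries. Cap2 and Capza2 were added for their place by the second quantifier. Members and lists were chosen with earlier results of these data known. Protein sequences were not used here.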

Additional observations from a re-analysis of the deposited data

How the results depend on the processing

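Of 107 values recomputed under an alternative, 85 were scored as the same and 0 reversed a called direction. The score stood for a kept call or a value within the spread between libraries, except for the number of pathway genes detected. That number has neither, and went from 85 to 66 at TPM of at least 5 and to 86 by the second quantifier. Part of the scoring was fixed in advance. A level with either library left out stays within that spread by construction, and the first quantifier's transcript table repeated its gene table. No member passed 1.5-fold between libraries under TMM, so no called direction of a member could reverse. The signs of Acta1 and Acta2, which turned positive in deposited TPM, were not called. The Acta1 level moved to 21345 TPM by the second quantifier and to 42966 TPM when rescaled to nuclear protein-coding genes, and ran from 16962 to 19000 with either library left out. The Acta1 share of actin TPM was 98.9% by the second quantifier and 98.5% in expected counts. In deposited TPM the Actc1 log2 ratio was 0.74 and 1 member passed 1.5-fold between libraries, against 0 under the other scalings. With no filter on low counts 0 of 6 members passed and 22.5% of 18594 genes did. The Acta1-201 share was 69.5% by the second quantifier. Shared words of Actg1 made up 33.5% at 75 bases and, added after seeing the data, 29.8% at 101 bases. No paired analysis was possible because there is 1 group. Depth limits Actg2, at 6 and 5 counts. No result from 2 libraries carries a test.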
